A study of Mus musculus with 4 samples.

Results

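The genes described here were Bmp4, the 4 ID genes Id1, Id2, Id3 and Id4, and 5 further genes whose products act in or respond to bone morphogenetic protein (BMP) signalling, Smad6, Smad9, Bambi, Msx1 and Msx2. They are listed by name, as a ligand and known targets of the pathway, with no threshold on a measured value, but the list was drawn up with earlier results of these data known. All 10 genes had a probe set whose platform annotation gave a single gene symbol, 16 probe sets in all among 34945 such probe sets and 45101 on the array, and all 10 were among the 14445 genes tested of 18193. The brightest probe set stood for each gene.

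Transcripts were measured on 4 Affymetrix arrays of CGR8 cells, a mouse embryonic stem (ES) cell line grown on gelatin without feeder cells being mentioned in the labels. Both groups were kept in Glasgow minimum essential medium with 15% serum replacement, pyruvate, non-essential amino acids, antibiotics and β-mercaptoethanol. One day after passage the medium was changed, for 2 arrays to the same medium, which holds 1000 U/ml of the cytokine leukemia inhibitory factor (LIF), and for 2 arrays to medium lacking it, and RNA was taken at 2 days. No BMP was listed among the supplements. The labels number the arrays 1 and 2 in each group without saying whether they came from separate cultures, so the p-values reflect no more than the spread of these arrays, possibly a technical one. In RNA of whole cultures, fewer cells that express a gene and less RNA per cell cannot be told apart.

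BMP ligands bind paired type I and type II receptor kinases, which phosphorylate the transcription factors Smad1, Smad5 and Smad9, and these enter the nucleus with Smad4. The ID genes are among the most direct targets of this signal. Their proteins hold a helix-loop-helix domain but no DNA-binding region, and they sequester E proteins such as Tcf3 and so block differentiation factors of the basic helix-loop-helix class. In ES cells without serum, BMP4 is known to act together with LIF to maintain self-renewal, and ID proteins can stand in for it. Smad6 and Bambi are induced by BMP and dampen the signal, and Msx1 and Msx2 are homeobox targets.

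The question was how these genes differed between cells with and without LIF. Bmp4, Id3 and Smad6 had lower signals without LIF, at least 2-fold with no overlap between the groups, while Id2 and Msx1 had higher mean signals and Id4 and Bambi differed by little. The members did not share 1 direction, and the ID genes themselves differed in sign. Over all genes tested 0 of the 10 passed limma's test at an adjusted p of 0.05, where 21 genes did (0.145%). An unadjusted p of 0.05 or less was reached by 3 members that were lower (Bmp4, Id3 and Smad6), against 3.73% of all genes in that direction, and by 1 that was higher (Msx1), against 7.16%. The arrays without LIF both lay below the arrays with LIF for 5 members, against 15.2% of all genes, and both above for 1, against 27.3%. The 3 members lower by at least 2-fold without overlap compare with 2.12% of all genes. The median log2 change of the 10 members was -0.43, beside 0.09 over all genes tested. It was -0.11 between the arrays numbered 1 and -0.73 between those numbered 2, where all genes had 0.11 and 0.06.

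Promoter sequences are shown for the 3 genes that were lower at least 2-fold without overlap and for Id2, the ID gene with the opposite sign. They come from RefSeq (GRCm38.p6), whose promoter table held 8 of the 10 genes and not Id1 or Bambi, and cover 250 bases before the gene start and 50 bases from it, on the gene's strand. Capitals mark GGCGCC, a GC-rich motif bound by Smad1 and Smad5, and GTCT, the short SMAD box, each on either strand. The windows were chr14:46390620-46390919 (minus strand) for Bmp4, chr4:136143572-136143871 (plus strand) for Id3, chr9:64022010-64022309 (minus strand) for Smad6 and chr12:25096043-25096342 (minus strand) for Id2.
Bmp4: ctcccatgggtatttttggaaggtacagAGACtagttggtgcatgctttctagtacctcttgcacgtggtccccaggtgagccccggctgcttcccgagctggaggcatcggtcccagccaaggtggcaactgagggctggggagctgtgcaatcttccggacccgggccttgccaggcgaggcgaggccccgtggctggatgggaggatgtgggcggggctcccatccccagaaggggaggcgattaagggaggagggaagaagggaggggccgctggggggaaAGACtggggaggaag
Id3: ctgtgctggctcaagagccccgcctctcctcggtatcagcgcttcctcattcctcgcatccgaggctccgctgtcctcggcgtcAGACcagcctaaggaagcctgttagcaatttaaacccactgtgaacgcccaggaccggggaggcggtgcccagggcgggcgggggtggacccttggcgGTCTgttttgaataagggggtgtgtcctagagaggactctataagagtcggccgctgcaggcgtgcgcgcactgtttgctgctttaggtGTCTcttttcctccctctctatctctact
Smad6: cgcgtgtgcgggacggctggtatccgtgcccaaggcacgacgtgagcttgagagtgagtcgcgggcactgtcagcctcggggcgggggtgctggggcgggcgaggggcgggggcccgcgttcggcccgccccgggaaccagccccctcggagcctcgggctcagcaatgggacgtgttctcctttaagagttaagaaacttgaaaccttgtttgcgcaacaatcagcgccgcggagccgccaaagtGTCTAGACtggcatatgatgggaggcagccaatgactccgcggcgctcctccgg
Id2: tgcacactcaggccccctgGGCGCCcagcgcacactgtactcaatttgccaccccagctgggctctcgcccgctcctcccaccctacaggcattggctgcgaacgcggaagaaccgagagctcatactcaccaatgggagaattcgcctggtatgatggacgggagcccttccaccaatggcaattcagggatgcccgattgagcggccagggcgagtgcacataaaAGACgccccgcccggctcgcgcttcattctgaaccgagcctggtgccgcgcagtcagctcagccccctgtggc

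GGCGCC was found in 3 of the 8 member promoters (Id2, Id4 and Smad9), against 11.9% of 32851 promoters of the same length, and in none of the 3 genes that were lower at least 2-fold. GTCT lay in 6 of the 8, against 88% of all promoters, with 3 matches in Id3, 2 each in Bmp4, Smad6, Smad9 and Msx2, and 1 in Id2. Smad9 and Msx2, which were not 2-fold lower, thus held as many as Bmp4 and Smad6. The STAT motif TTCNNNGAA was found in 0 of 8 and in 8.3% of all promoters. The E-box CANNTG, which E proteins bind, was found in 6 of 8 and in 72.3% of all. The motifs were searched on both strands, and GGCGCC and GTCT share no bases in these windows. A match is a stretch of letters only, and its absence here says nothing of sequence farther away. The GC content of the 4 windows shown was 60% to 66.3%, against a median of 52.7% over all promoters. It was 73.3% for Id4 and 73.7% for Smad9, which hold GGCGCC, and 70% for Msx1 and 61% for Msx2, which do not.

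Bmp4, the ligand, gave the widest separation of the 10. Its probe set (1422912_at) read 964.8 and 1215 with LIF, against 111.2 and 240.1 without it. Both arrays without LIF lay far below both with LIF. The means were 1090 ± 177 and 176 ± 91.1 (SD, n = 2), a log2 change of -2.73 (6.63-fold; 95% interval -3.64 to -1.82; adjusted p = 0.060, limma), the 20th most negative change of the 14445 tested genes. Within the arrays numbered 1 the change was -3.12 and within those numbered 2 it was -2.34. Dropping an array that lacked LIF gave -2.17 (without array 1) and -3.28 (without array 2), and dropping either array with LIF gave -2.89 and -2.56. Such a fit leaves a lone array in a group, with no spread of its own, so only the sizes are given.

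**Figure D1:**
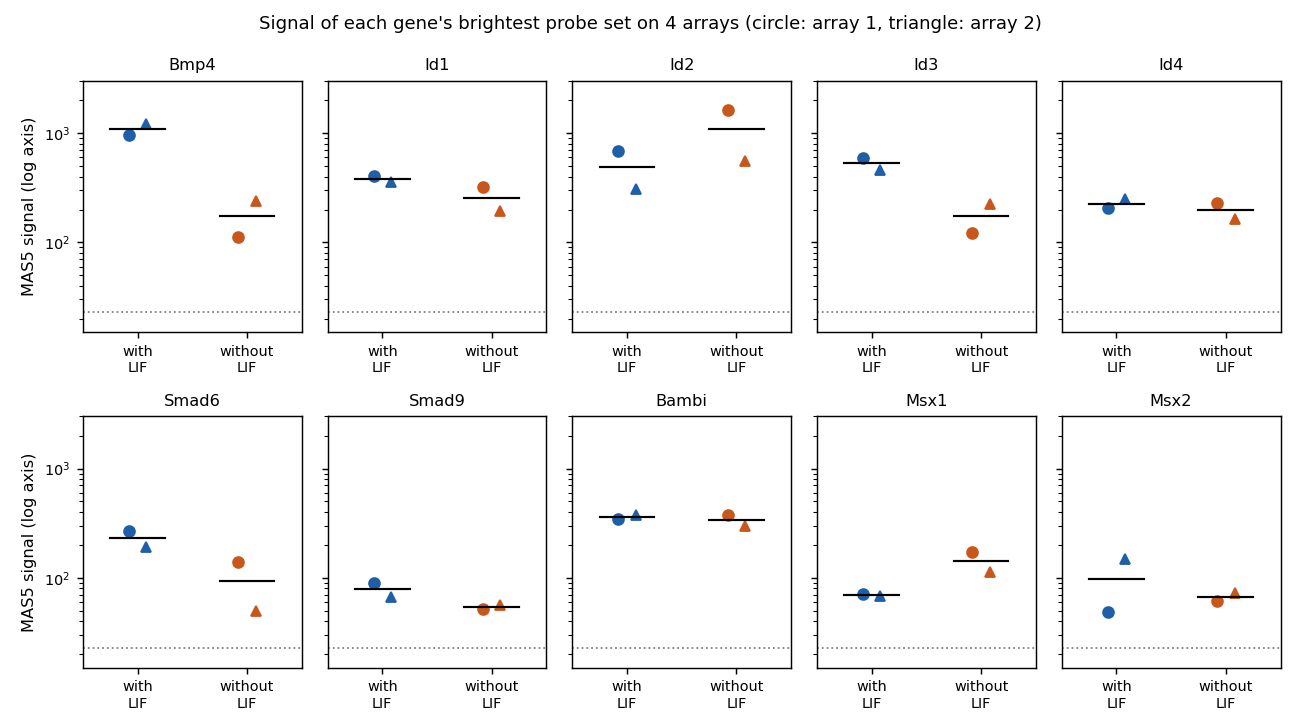
MAS5 signal (log axis) of the brightest probe set of each of the 10 genes on the 2 arrays with LIF (blue) and the 2 without LIF (orange), circles for array 1 and triangles for array 2, with bars at the group means and a dotted line at the filter of 22.9. The groups separate widely for Bmp4 and Id3, and for Id2 the arrays numbered 1 lie above those numbered 2 in both groups.

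The ID genes divided by sign. Id3 (1416630_at) read 597 and 462.5 with LIF, against 122.9 and 223.8 without it, so that both arrays lacking LIF lay well below both with it. The log2 change was -1.66 (3.17-fold; 95% interval -2.51 to -0.82; adjusted p = 0.14), -2.28 between the arrays numbered 1 and -1.05 between the other two. Id3 passed when each array was given a common median (-1.96, adjusted p = 0.024). Its change was -1.23 with array 1 of the LIF-free group dropped and -2.10 with array 2 of that group dropped. Id1 (1425895_a_at) read 406.5 and 356.8 with LIF, against 320.5 and 193.9 without it. The groups did not overlap, but the nearest arrays lay close, and the log2 change of -0.61 (95% interval -1.37 to 0.15; adjusted p = 0.55) was smaller than that of Id3. The difference between Id3 and Id1 was not tested.

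Id2 had the opposite sign. Its brightest probe set (1435176_a_at) read 680 and 308 with LIF, against 1616 and 552.2 without it. The groups overlapped, because on the arrays numbered 1 it was higher in both groups, but without LIF it was higher within each number, by 1.25 and 0.84 on the log2 scale. The pooled log2 change was 1.05 (95% interval -0.27 to 2.36; adjusted p = 0.56). Dropping array 2 of the LIF-free group gave 1.82, and dropping array 1 of that group gave 0.27. Another probe set of Id2 (1422537_a_at) read 203.2 and 131.5 with LIF, against 377 and 238.4 without it, without overlap. Its change was 0.89 and 0.86 within the numbers. The remaining one (1453596_at) lay near the filter, at 19.4 and 25.2 with LIF, against 53.4 and 17.5 without it, and went opposite ways within the numbers.

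Id4, the fourth of the family, differed least. Its brightest probe set (1423259_at) read 205.5 and 247.1 with LIF, against 229 and 165.1 without it, with overlap and a log2 change of -0.21 (95% interval -0.97 to 0.54; adjusted p = 0.86). A second probe set (1450928_at) read 167 and 151.2 with LIF, against 133.2 and 87.5 without it, without overlap. The remaining one (1423260_at) read 98.5 and 86.3 with LIF, against 122.9 and 46 without it. All 3 probe sets of Id4 had negative mean changes, of -0.21, -0.56 and -0.29. The interval for the brightest includes falls of nearly 2-fold.

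**Figure D2:**
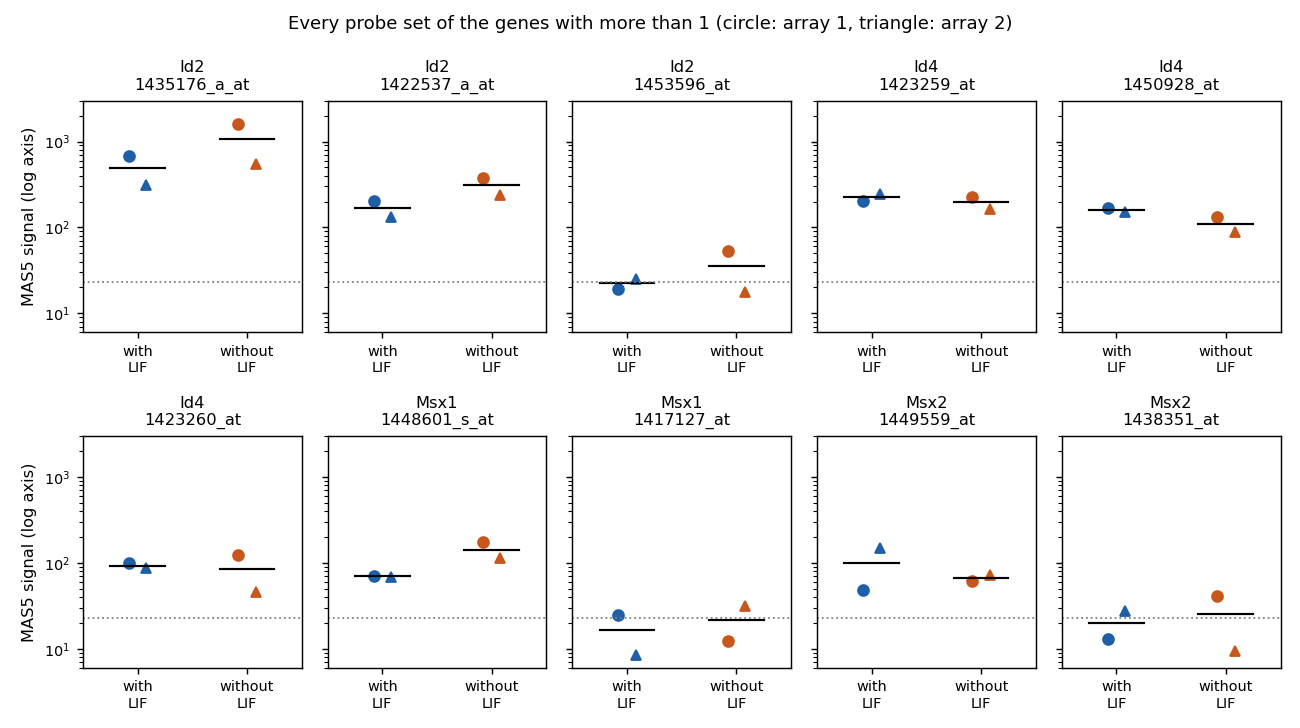
MAS5 signal (log axis) of all 10 probe sets of Id2, Id4, Msx1 and Msx2 on the 4 arrays, with bars at group means and a dotted line at the filter of 22.9. Both bright Id2 probe sets are higher without LIF within each array number, and the dim probe sets near the dotted line of Id2, Msx1 and Msx2 scatter across the groups.

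Among the SMAD genes and the pseudoreceptor, Smad6, the inhibitory SMAD, differed most. Its probe set (1422771_at) read 270.1 and 190.1 with LIF, against 139.4 and 49.2 without it. The groups did not overlap, though the spread within each was wide. The log2 change was -1.45 (2.74-fold; 95% interval -2.73 to -0.18; adjusted p = 0.39), and -0.95 and -1.95 within the numbers. Dropping array 1 of the LIF-free group gave -2.20, and dropping array 2 of that group gave -0.70. Smad9 (1450265_at), also called Smad8, is a receptor-activated SMAD and itself a BMP target. It read 89.5 and 66.9 with LIF, against 52.3 and 56.4 without it, a small separation in dim signals (log2 change -0.51, 95% interval -1.64 to 0.61, adjusted p = 0.76). Bambi (1423753_at), a membrane protein that resembles a type I receptor without the kinase, read 342.5 and 372.6 with LIF, against 372.1 and 298.9 without it. Its groups overlapped, and the interval of its log2 change, -0.71 to 0.51, was the narrowest of the members (change -0.10, adjusted p = 0.92).

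The homeobox genes Msx1 and Msx2 had dim signals. Msx1 (1448601_s_at) read 70.9 and 68.2 with LIF, against 172.6 and 112.3 without it, both higher than either array with LIF. Its log2 change was 1.00 (2.00-fold; 95% interval 0.02 to 1.99; adjusted p = 0.45), and 1.28 and 0.72 within the numbers. A second Msx1 probe set (1417127_at) lay below the filter, with 24.5 and 8.5 with LIF, against 12.2 and 31.3 without it, and showed no separation. Msx2 (1449559_at) read 48.6 and 148.2 with LIF, against 61.6 and 72.6 without it, so that 1 array with LIF set the sign of its change (-0.34, 95% interval -1.79 to 1.10, adjusted p = 0.88). Without array 2 with LIF it was 0.46. Its other probe set (1438351_at) was also below the filter. With every single-symbol probe set tested, 0 of the members' 14 probe sets above the filter and 0 of all 26405 (0%) passed, while 3 and 2038 had an unadjusted p of 0.05 or less.

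**Figure D3:**
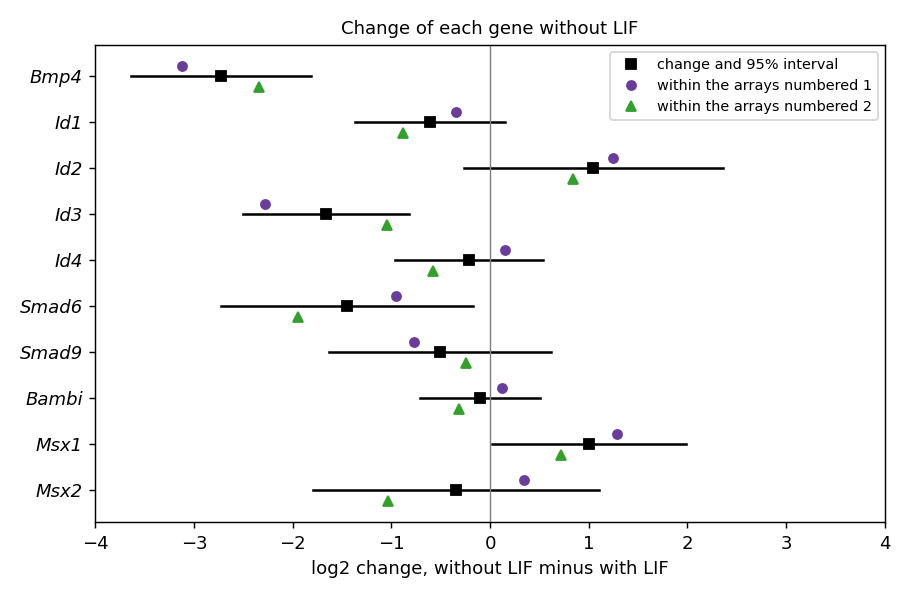
Log2 change of each gene (without LIF minus with LIF; squares) with its 95% interval from limma (bars), and the changes within the arrays numbered 1 (circles) and 2 (triangles). For Bmp4, Id3 and Smad6 the interval lies below 0, for Msx1 it lies just above 0, and within-number changes of Id4, Bambi and Msx2 fall on both sides of 0.

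Several measures separated the arrays numbered 1 from those numbered 2 in both groups. The mean of the 18S ribosomal RNA control probe sets was 291 (with LIF) and 335 (without) for number 1, against 3035 and 1560 for number 2, and the ratio of 3' to 5' Actb signal was 1.32 and 1.44 against 1.83 and 1.77. With the replicate number as a block, 3 members fell, Bmp4 (adjusted p = 1.4e-04), Id3 (0.0076) and Smad6 (0.036), against 2.62% of all genes lower by that fit, and 1 rose, Id2 (0.0077), against 4.13% higher. The Id2 call is that of its brightest probe set. With the block and every single-symbol probe set tested, 1422537_a_at and 1453596_at of Id2 did not pass (adjusted p = 0.081 and 0.85). Id1 and Msx1 did not pass with the block (adjusted p = 0.18 for each). As a check of the treatment, the LIF-induced inhibitor Socs3 fell by 4.16 and the naive state factor Klf4 fell by 3.84 on the log2 scale (adjusted p = 0.0046 and 0.010).

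**Figure D4:**
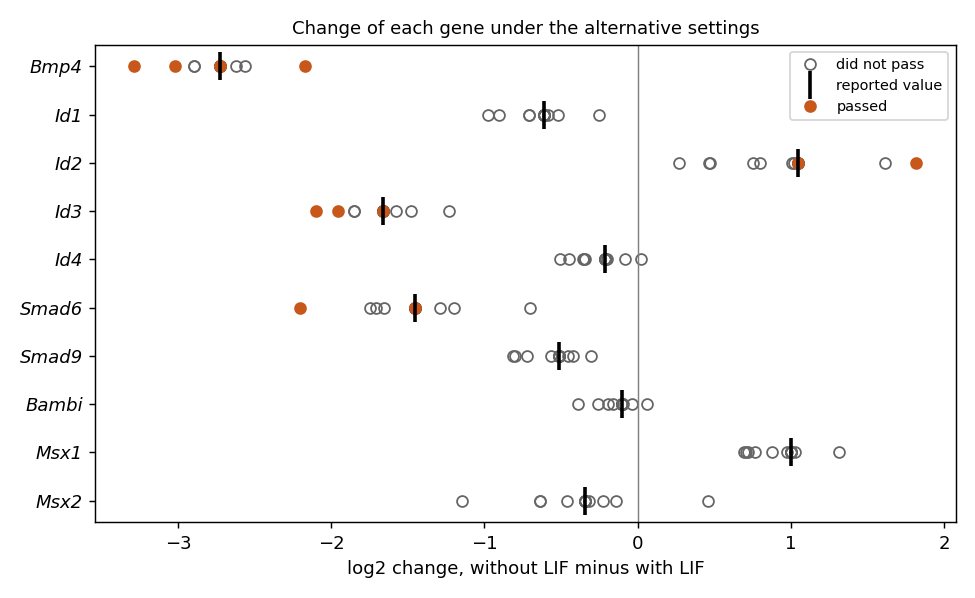
Log2 change of each gene (without LIF minus with LIF) under the 14 alternative settings where it was tested (13 for Smad9 and Msx1), with filled circles where it passed an adjusted p of 0.05, open circles where it did not, and a bar at the reported value. Bmp4 lies between -3.28 and -2.17 in all of them and passes in 5, some of which leave a lone array without LIF. Id4, Bambi and Msx2 each cross 0 in 1.

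Of 8 tested BMP ligands, Bmp4 included, 0 rose and 0 fell, and their median log2 change was 0.06 (-0.23 with quantile normalization and with a common median). Bmp8b, a ligand of the germ line and brown fat, read 25.1 and 11.3 with LIF, against 127.6 and 53.8 without it (log2 change 2.30, adjusted p = 0.33). Its levels with LIF were near or below the filter, so the size is uncertain. Bmp5 and Bmp8a had changes of 0.78 and -0.73 with overlapping groups. Bmp2 lay below the filter and was not tested.

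Of 12 receptors and co-receptors 0 rose and 0 fell, with a median of 0.36 (0.35 with quantile normalization and 0.07 with a common median). Bmpr1a, a type I BMP receptor, read 1814 and 1912 with LIF, against 2425 and 2356 without it (log2 change 0.36, adjusted p = 0.51). Bmpr2, the type II receptor, had a log2 change of 0.09 (adjusted p = 0.91; -0.20 with a common median). Acvr1, another type I receptor, had a change of 0.71 (adjusted p = 0.51). The co-receptor Tgfbr3 read 104.5 and 149.8 with LIF, against 286.1 and 359.2 without it (1.36, adjusted p = 0.19), and Bmpr1b, a further type I receptor, read 30.1 and 15.3 against 159.1 and 83.1 (2.42, adjusted p = 0.22). Tgfbr3 and Bmpr1b were the 2 of the list that rose with the block (adjusted p = 0.014 and 0.032), against 4.13% of all genes higher, and 0 fell. With LIF, Bmpr1b read close to the filter signal of 22.9 on array 1 and under it on array 2. How large its rise was is therefore uncertain.

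The signal-transducing SMADs differed little. Smad1, Smad5 and Smad4 had log2 changes of 0.18, 0.27 and -0.04 (adjusted p = 0.83, 0.73 and 0.97). With a common median the first 2 read -0.11 and -0.02, and Smad4 read 0.02 with quantile normalization. Smad7, the other inhibitory SMAD, read 592.4 and 519.7 with LIF, against 268.4 and 328.9 without it, with no overlap (-0.90, adjusted p = 0.24, and 0.033 with the block). Skil, a repressor of SMAD complexes, read 2851 and 2716 with LIF, against 4825 and 7482 without it (1.11, adjusted p = 0.13, and 0.0024 with the block). Eid2, another inhibitor, had a change of -0.44 (adjusted p = 0.51). Over the 19 SMADs and intracellular regulators tested, which include Smad6 and Smad9, 0 rose and 0 fell and the median was 0.12 (0.04 with quantile normalization and -0.17 with a common median). With the block 1 rose, against 4.13% of all genes, and 2 fell, against 2.62%.

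Of 14 extracellular antagonists and modulators tested, Bambi among them, 0 rose and 0 fell, with a median of 0.12 (-0.04 with quantile normalization and -0.17 with a common median). Fst, which encodes the BMP and activin antagonist follistatin, read 199.6 and 107 with LIF, against 861 and 319.6 without it (1.84, adjusted p = 0.26). With the block 2 of the list rose, Fst and Fstl1 (adjusted p = 0.0015 and 0.015), against 4.13% of all genes higher, and 0 fell. Bmp1, a procollagen protease that also cleaves the antagonist chordin, read 44.4 and 15.2 with LIF, against 104.7 and 148.9 without it (2.26, adjusted p = 0.26). Chrdl1, a chordin-like antagonist, read 8.9 and 19.5 with LIF, against 44.5 and 47.1 without it (1.80, adjusted p = 0.48). With LIF, Chrdl1 on both arrays and Bmp1 on array 2 lay below the filter, so the sizes are uncertain. Crim1 had a change of 0.97 (adjusted p = 0.60). Nog, which encodes noggin, lay below the filter at 2 and 43.2 with LIF, against 9.8 and 60.4 without it.

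The list of BMP target genes held 21 tested genes, 8 of them members. On this list 0 rose and 0 fell, 7 did not overlap and were lower, against 15.2% of all genes, and 3 did not overlap and were higher, against 27.3%. The median was -0.24 (-0.41 with quantile normalization and -0.53 with a common median), or 0.16 for number 1 and -0.58 for number 2. Tbx3, a T-box factor of the naive state that also responds to LIF, read 1913 and 2048 with LIF, against 227.7 and 591.4 without it (-2.43, adjusted p = 0.084, and 4.0e-04 in the blocked fit). Klf10, a zinc finger gene induced by TGF-β and BMP, read 1056 and 1397 with LIF, against 675.6 and 834.8 without it (-0.69, adjusted p = 0.34, and 0.027 in the blocked fit). With the block 2 of the list rose, against 4.13% of all genes, and 6 fell, against 2.62%. Members already counted above make up 1 of the 2 (Id2) and 2 of the 6 (Id3 and Smad6). Smad7, counted among the SMADs above, is another of the 6. Of the genes without overlap, the 7 lower include the members Id1, Id3 and Smad6 and also Smad7, and the 3 higher include the member Msx1.

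The E proteins, which ID proteins bind, were represented by Tcf3, Tcf4 and Tcf12. Tcf12 read 1632 and 1415 with LIF, against 2922 and 2028 without it, without overlap (0.68, adjusted p = 0.34, and 0.020 with the block). Tcf3 and Tcf4 had log2 changes of 0.11 and -0.07 with overlapping groups (adjusted p = 0.93 and 0.95; Tcf3 read -0.18 with a common median). Neurod1, a neuronal factor of the same class, read 285.4 and 232.8 with LIF, against 489.9 and 1258 without it (1.61, adjusted p = 0.24, and 0.014 in the blocked fit), and Tal1 and Myod1 had 1.72 and -1.04 in dim signals (adjusted p = 0.38 and 0.61). Of the 13 E proteins and partners tested 0 rose and 0 fell, with a median of 0.24, which was 0.015 with quantile normalization and turned to -0.056 with a common median. Between the arrays numbered 1 the median was 0.73, and for number 2 it was -0.10.

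**Figure D5:**
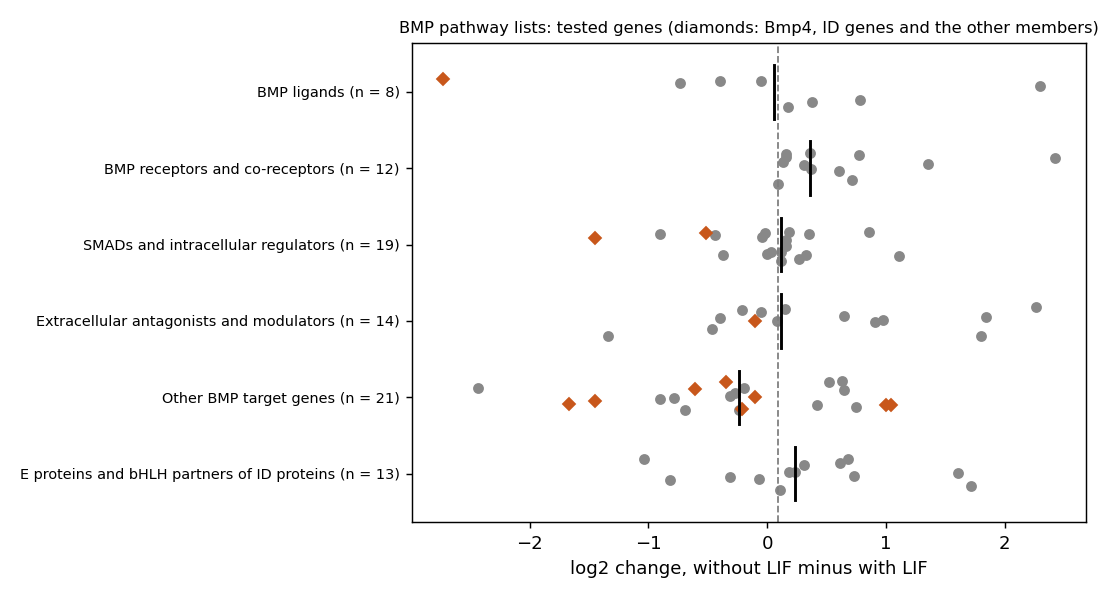
Log2 change (without LIF minus with LIF) of each tested gene of 6 BMP pathway lists, with the 10 genes described here as orange diamonds, list medians as bars and the median of all tested genes, 0.09, as a dashed line. The most negative points are Bmp4 among the ligands and Tbx3 among the targets, and the list medians lie between -0.24 and 0.36.

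Markers of the cell types the cultures could hold were read on the same arrays. The 8 ES cell markers were all above the filter, with summed signals of 88952 and 100982 with LIF, against 65620 and 88057 without it. Of 13 primitive endoderm markers all were above it, with sums of 3101 and 8584 with LIF, against 4128 and 22148 without it, higher on the array numbered 2 in each group. With the block 4 of them rose, Ttr, Col4a1, Dab2 and Cubn (adjusted p = 4.3e-04 to 0.0051), against 4.13% of all genes higher, and 0 fell. In the fit without the block the groups of Col4a1, Dab2 and Cubn overlapped (adjusted p = 0.55, 0.60 and 0.72). Lama1, Foxa2 and Pdgfra had log2 changes of -0.37, -0.12 and -0.04, the rest were positive, and the list median was 0.75. Ttr, a carrier protein of visceral endoderm, read 2.8 and 31.4 with LIF, against 98.5 and 995.7 without it, the most positive log2 change of all tested genes (5.06, adjusted p = 0.24 in the fit without the block). Its levels with LIF were near or below the filter, so the size is uncertain. Of 8 trophoblast markers, a lineage in which Bmp4 is also expressed, 5 were above the filter, with sums of 3383 and 4710 with LIF, against 1817 and 3156 without it. Its defining genes Cdx2 and Elf5 lay below the filter, with Cdx2 at 4.3 and 4.8 with LIF, against 32.4 and 44 without it. The lower sums rest on Tfap2c, which ES cells also express and which fell by 2.16 (adjusted p = 0.027). Tfap2c read 2667 and 3785 with LIF, against 707.3 and 713.3 without it. Krt18 and Krt8 were higher without LIF, with no overlap (log2 changes 1.42 and 0.95). Neither passed in the unblocked fit (adjusted p = 0.32 for Krt18, 0.50 for Krt8). In the blocked fit both rose (0.0046 and 0.036). Hand1 was lower without overlap (-0.31), and Krt7 overlapped (0.13). Of 9 mesoderm and primitive streak markers 6 were above it, with sums of 453 and 495 with LIF, against 659 and 684 without it. Neuroectoderm and fibroblast feeder markers had sums of 1349 to 2208 and 365 to 600 with LIF and 1555 to 3043 and 506 to 875.5 without LIF, with 5 of 8 and 6 of 8 above the filter. With the block 1 ES cell marker rose and 2 fell, against 4.13% of all genes higher and 2.62% lower. Trophoblast and neuroectoderm markers each had 2 that rose and 1 that fell, and the mesoderm and feeder lists had 0. The part of any of these cell types in the values of the 10 genes was not tested.

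The genes whose pattern over the 4 arrays was most like that of Bmp4, by distance between log2 signals centred on each gene's mean, were Icam1, Khdc3, Tbx3, Fam131c and Cyp8b1, of 13524 ranked. Icam1, a cell adhesion molecule, was nearest and read 2020 and 2485 with LIF, against 228.6 and 581.7 without it. Like Bmp4, each of the 5 had its lower value without LIF on the array numbered 1, which choosing them by this pattern favours. Without LIF, Fam131c (12.2 and 17.8) and Cyp8b1 (10.2 and 13.6) read below the filter signal. Nearest to Id1 were Gata1, Max and Nkain4, with log2 changes of -0.63, -0.58 and -0.65. Nearest to Id3 were Fam183b, Adgre5 and Lgals3, with changes of -1.66, -1.56 and -1.51. This likeness rests on 4 arrays in 2 groups and carries no test.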

How the data were processed

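The authors deposited MAS5 signal intensities on a linear scale, 1 value per probe set and array, per the submitters' processing notes, which give no version. MAS5 scales each array to a common mean, which bright probe sets dominate. The total RNA labelled was 100 ng per array. Of 45101 probe sets, 64 controls, 932 with several symbols and 9160 without one in the annotation were left out of the gene test. Entrez identifiers of 34741 of 34945 probe sets matched RefSeq (GRCm38.p6), and 0 symbols changed. One value of 0 was raised to 0.1 before log2.

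The probe set of highest mean log2 signal stood for a gene, which was tested where this mean exceeded the 30th percentile over non-control probe sets (log2 signal 4.51, a signal of 22.9). Groups were compared with limma 3.58.1 in R 4.3.3 (lmFit, eBayes with a mean-variance trend, a two-sided test with a single group term and 2 residual degrees of freedom, Benjamini-Hochberg over 14445 genes, threshold 0.05). The fit was tested on simulated data. A log2 change is the mean without LIF less the mean with it, and intervals are 95% intervals of the moderated test. An exact permutation test of 2 against 2 arrays cannot go below p = 0.33 and was not used.

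The text names the 10 members, fixed pathway genes, up to 4 genes of each pathway list with the smallest p, and the genes nearest to Bmp4, Id1 and Id3. Bmp2, Fstl1 and the trophoblast markers Tfap2c, Cdx2, Elf5, Krt7, Krt8, Krt18 and Hand1 were named after their values were seen. So were the primitive endoderm markers Ttr, Col4a1, Dab2, Cubn, Lama1, Foxa2 and Pdgfra. Members and lists were chosen with earlier results of these data known. Alternatives changed the filter, pseudocount (14.3), scaling, variance model, probe set, threshold, replicate block and arrays. Python 3.11.15 with matplotlib 3.10.9 drew the figures.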

Additional observations from a re-analysis of the deposited data

How the results depend on the processing

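The count of called genes, 21, was 41 with a filter at the 50th percentile, 40 with the pseudocount, 10 with quantile normalization, 130 with a common median, 0 without the trend (1589 at an unadjusted p of 0.05 or less), 52 with robust eBayes, 12 with probe sets averaged per gene, 140 at an adjusted p of 0.1, 0 with every probe set tested (2038) and 7 to 496 with 1 array left out. With the replicate number as a block it was 975. The log2 differences between arrays 1 and 2 of the 2 groups correlated at 0.29 over tested genes, and the labels do not say what the numbers share. Of the 10 members 0 passed, against 4 with the block (Bmp4, Id2, Id3 and Smad6), 2 with a common median (Bmp4 and Id3), 1 with robust eBayes and 1 at an adjusted p of 0.1 (Bmp4 in both), and 0 to 3 with 1 array left out (Bmp4 and Smad6 without array 1 lacking LIF, and Bmp4, Id2 and Id3 without array 2 lacking LIF). Bmp4 passed with a common median (-3.02, adjusted p = 5.2e-04), robust eBayes (-2.73, 0.0499) and the block (-2.73, 1.4e-04). With 1 array left out it ranged from -3.28 to -2.17, and its adjusted p over all alternatives ranged from 3.8e-05 to 0.29. Leaving out arrays turned the sign of Id4 (-0.45 to 0.023), Bambi (-0.26 to 0.059) and Msx2 (-1.15 to 0.46). The signs of Bmp4, Id1, Id2, Id3, Smad6, Smad9 and Msx1 were kept under each alternative in which they were tested. A common median moved the median change of all tested genes from 0.09 to -0.20, and quantile normalization to 0.02. Of the 5 genes nearest to Bmp4, 4 remained with quantile normalization. The causes were not tested. A fit with 1 array left out has a lone array in a group, assumed to vary like the other group. Msx1 lay below the filter, and had no test, when plain probe sets were preferred, as did Smad9 with the filter at the 50th percentile.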
